A study of Homo sapiens with 6 samples.

Results

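The genes described here encode the proteins that copy DNA at the replication fork, mark the origins where copying starts, rebuild chromatin behind the fork and make deoxynucleotides. The list holds 42 genes, chosen by name from the gene symbols of the array platform, of 20046 named genes on the array. They were chosen with earlier results of these data known, so counts over the list describe these genes only. All 42 had at least 1 probe, 64 probes in all, and 38 genes had a probe above background on at least 3 of the 6 arrays and were tested. The remaining 4, PRIM2, CLSPN, CHAF1A and DTYMK, were too dim to test and are described by their values.

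SK-Hep1, an established human line that the labels place in hepatic adenocarcinoma, was transfected with siRNA against YAP1 and TAZ (knockdown) or with a control siRNA against luciferase (control), and total RNA was profiled 3 days later. Each group held 3 samples, 1 per Illumina bead array of 47231 probes, and separate cultures are not stated in the labels. The p-values therefore rest on variation among these 6 samples alone, and that variation may be technical. YAP1 and TAZ are transcriptional co-activators of the Hippo pathway, and the study compared gene expression with and without them. Levels below are normalised log2 intensities, changes are knockdown minus control on that scale, errors of a change are standard errors from limma (SE), and a gene rose or fell where its Benjamini-Hochberg adjusted p was under 0.05 over all 15899 detected probes.

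DNA replication starts at origins bound by the origin recognition complex, onto which the MCM helicase is loaded in G1. DNA polymerase alpha and its primase lay down primers, replication factor C loads the PCNA sliding clamp, and polymerases epsilon and delta extend the leading and lagging strands while replication protein A covers single-stranded DNA. Many of these genes are transcribed at the G1/S boundary through E2F factors, so that their mRNA is abundant in cycling cells and low in resting ones.

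The siRNA targets were checked first. YAP1 stood at 10.77, 10.85 and 10.79 in the controls against 8.42, 8.33 and 8.42 after knockdown. WWTR1, the gene for TAZ, stood at 7.42, 7.34 and 7.46 in the controls and was below background on all knockdown arrays, a fall of at least 2.34-fold (adjusted p = 6.75e-07). Across the series, 13620 to 16827 probes per array were detected, and detected probes correlated at 0.990 to 0.995 between replicates and at 0.932 to 0.944 between groups. Of the hepatocyte markers, 2 of 8 with a probe (ALB and SERPINA1) were detected on at least 3 arrays, while APOA1, APOB, TTR, TF and FGB were detected on none. None of 7 endothelial markers was detected, CD68 was the 1 detected of 4 leukocyte markers with a probe, and VIM, COL1A1, FN1 and THY1 were the 4 detected of 5 mesenchymal markers. Sums of the deposited intensities, before normalisation, were 1042 to 1249 in control against 1477 to 1638 in knockdown samples for hepatocyte markers, and 391 to 452 against 362 to 386 for endothelial markers. They were 3379 to 4107 against 2269 to 2998 for leukocyte markers, 1891 to 2592 against 3200 to 3758 for epithelial markers (EPCAM and KRT19 detected of 3), and 20544 to 22134 against 19782 to 22694 for mesenchymal markers. These sums are not normalised and follow the brightest probes. After normalisation SERPINA1 rose (1.5, adjusted p = 5.94e-07) while ALB fell (-0.48, adjusted p = 0.00468), and AFP was detected on 2 control arrays and no knockdown array. COL1A1 (0.86, adjusted p = 0.000124), FN1 (at least 1.05-fold, adjusted p = 5.91e-05) and THY1 (0.43, adjusted p = 0.0048) rose, while VIM did not pass (0.02, adjusted p = 0.906). KRT19 rose (1.05, adjusted p = 1.27e-05) and EPCAM did not pass (0.17, adjusted p = 0.181). The brightest CD68 probe changed by -0.05 (adjusted p = 0.759), and its other probes rose by 0.62 and 1.52. Their part in the results below was not tested.

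Most of the replication genes fell after depletion of YAP1 and TAZ. Of the 38 tested, 35 fell, 1 rose and 2 did not pass. Among all 9718 tested genes 54.8% changed, 27.5% lower and 27.4% higher. The median change was -1.35, or 2.56-fold lower, where the median of all genes tested was 0.0016. At 2-fold or more, 24 members fell (5.54% of all genes did), and 9 fell by 4-fold or more (1.09% of all genes did). The member that rose was POLD4, the smallest subunit of polymerase delta, and the members that did not pass were ORC4 and ORC6. All 3 knockdown arrays lay below all 3 control arrays for 35 members (31.5% of all genes) and above them for 2, POLD4 and ORC6 (30.9% of all genes). For ORC6 the lowest knockdown value was 14.230 and the highest control value 14.228. Its change was 0.05, and its dimmer probe changed by -1.89. In RNA from whole cultures, fewer cells in S phase and less of an mRNA in each cell cannot be told apart. With arrays scaled to a common median in place of quantile normalisation, 35 members fell and 1 rose, while 2475 of all genes fell and 1438 rose in place of 2670 and 2658, and the median change of all genes moved to -0.107. The members' median was then -1.50, or -1.39 relative to all genes.

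**Figure D1:**
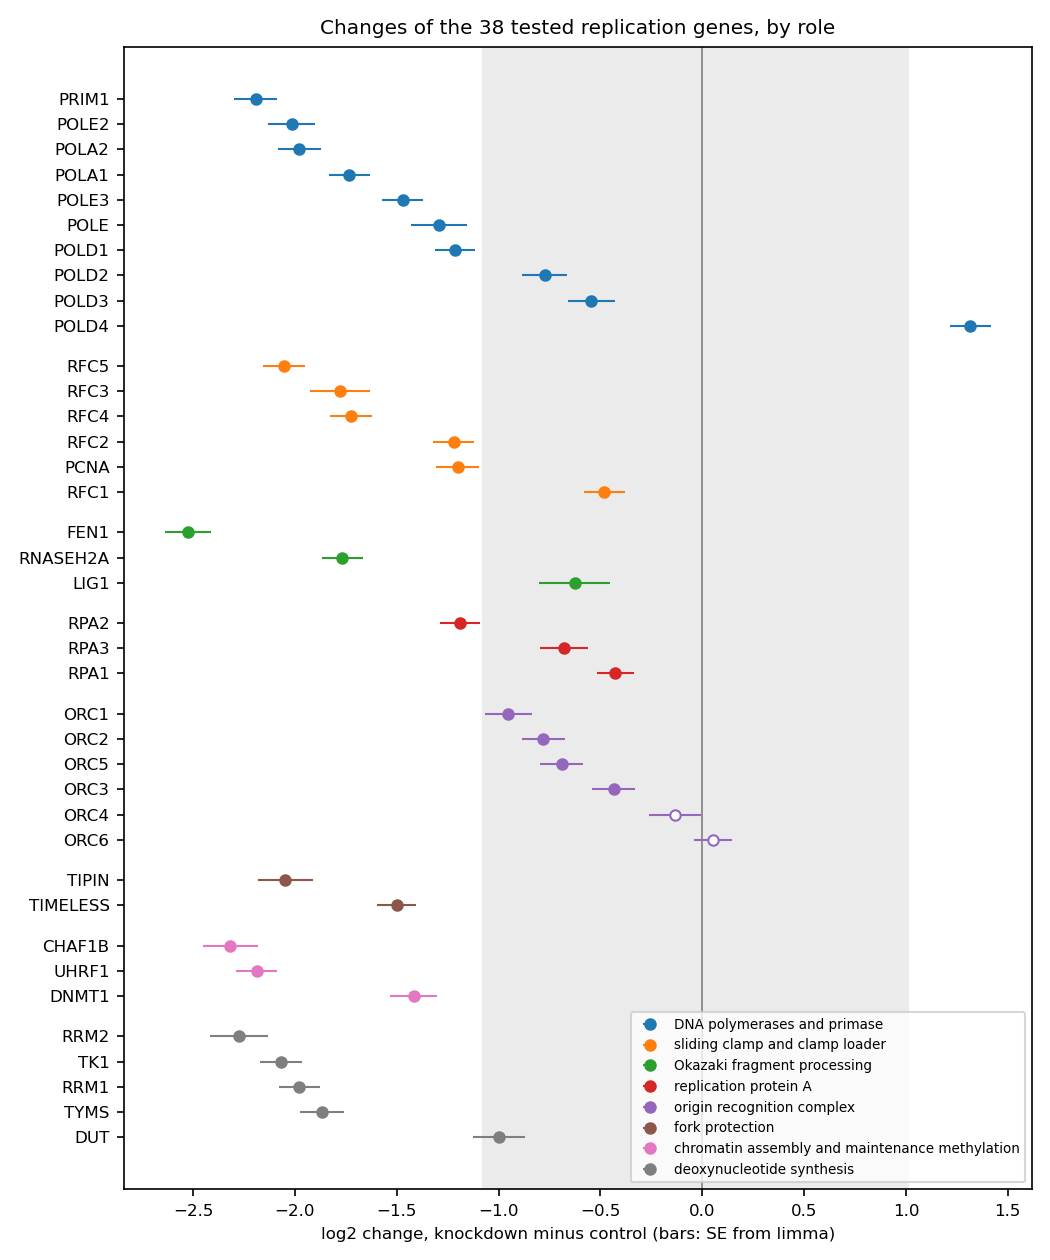
Log2 change (x axis, knockdown minus control) of each tested member (y axis), grouped by role, with bars for the standard error from limma. Filled points passed an adjusted p of 0.05, open points (ORC4 and ORC6) did not, and the grey band runs from the 5th to the 95th percentile of all 9718 genes, -1.08 to 1.01; 24 members lie at or below its lower end and POLD4 lies above its upper end.

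The fall was alike in size on the 3 knockdown arrays. The median level of the 38 members was 9.14, 8.96 and 9.18 in the controls against 7.81, 7.83 and 7.87 after knockdown, so the groups did not overlap. The same median over all genes was 8.20 to 8.22 on the 6 arrays, which quantile normalisation makes nearly equal by construction. Among the members, the control level and the change had a Spearman rho of -0.19 (n = 38 genes that share the same 6 arrays), which describes these genes only. The control level is subtracted in the change, which by itself can pull rho negative, and the processing shrinks changes of dim probes. No meaning is therefore read into its sign.

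**Figure D2:**
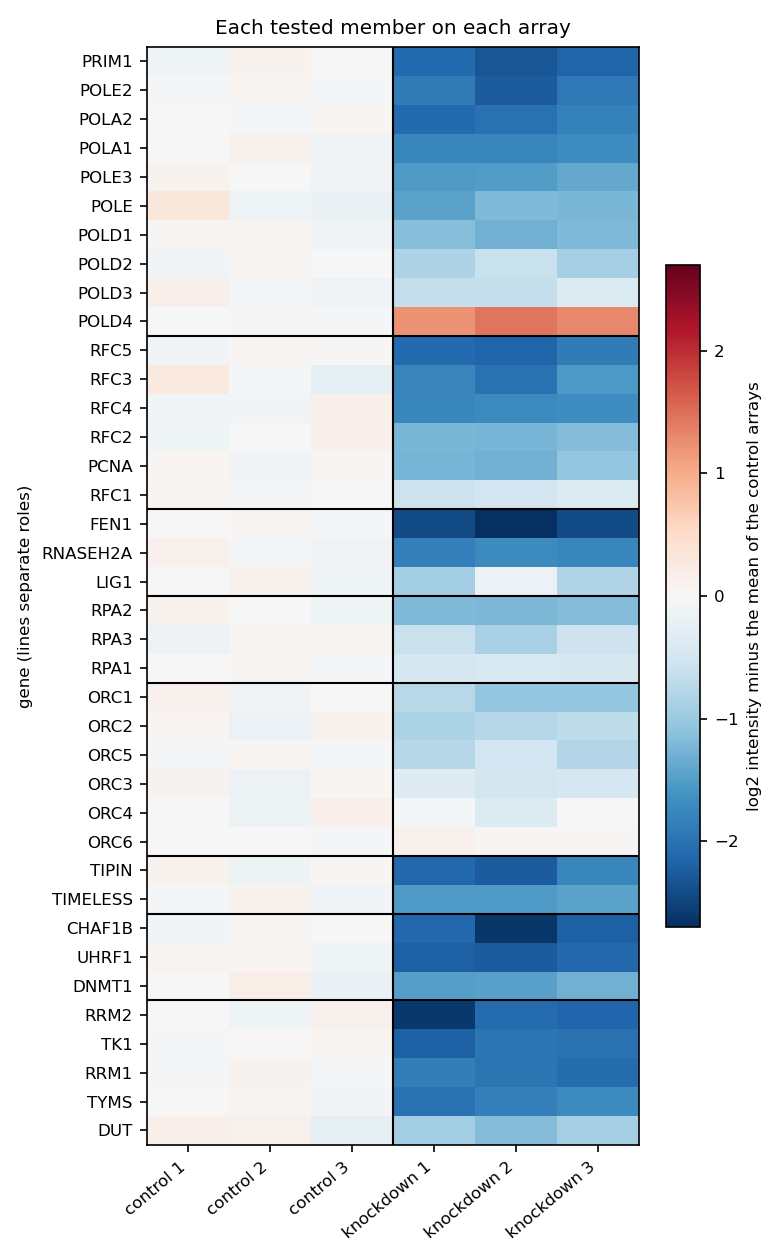
Level of each of the 38 tested members (rows, ordered by role and change) on each of the 6 arrays (columns), as log2 intensity minus the mean of the control arrays. The 3 knockdown columns are blue for most rows, while POLD4 is red and ORC6 is nearly white; ORC4 is pale blue on knockdown array 2 (6.06) and nearly white on the others, and LIG1 is nearly white on knockdown array 2 (8.03).

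Promoter sequences are shown because most members fell while POLD4 and a probe of DUT went the other way. RefSeq promoter windows (GRCh38.p14, from 250 bases before to 50 bases after a transcript start) were matched by symbol for 39 of the 42 genes, 54 windows in all. Each was searched on both strands for the E2F site (TTTCCCGC, TTTCGCGC, TTTGCCGC or TTTGGCGC), the CCAAT box (CCAAT), the cell cycle homology element (TTTGAA) and the TEAD site (GGAATG). The E2F letters were found in 15 of the 54 windows (27.8%), against 1164 of all 35116 windows (3.31%). Counted by gene, they were in 14 of 39 members and in 1090 of all 27305 genes with a window. The windows of all genes include genes not tested on these arrays, and starts of the same gene count as separate windows. CCAAT was found in 27 member windows (50%, against 34.6% of all), the homology element in 3 (5.56%, against 15.2%) and the TEAD letters in 7 (13%, against 14%). Member windows were richer in G and C (median 66.3%, against 58.7% of all windows). Of 32 members that fell and have a window, 13 held the E2F letters. The 7 other members with a window were POLD4, ORC4, ORC6 and the untested PRIM2, CLSPN, CHAF1A and DTYMK, and only CLSPN held them. Without the detection filter CLSPN (-0.88) and CHAF1A (-1.50) fell, while DTYMK (-0.32) and PRIM2 (0.18) did not pass. Whether the letters go with the direction of change was not tested. No 2 matches of different motifs overlapped in the member windows, 3 pairs of matches of the same motif did, and 14 of the 17 E2F matches began within 70 bases before the start. The 250 bases before the start are given below with E2F and CCAAT matches in capitals: PCNA, with 1 E2F match and 3 CCAAT boxes (chr20:5126623-5126872, minus strand, most upstream of 2 starts), FEN1, the member with the largest fall, with neither (chr11:61792661-61792910, plus strand), POLD4, the member that rose, with 3 CCAAT boxes (chr11:67353597-67353846, minus strand, most upstream of 2 starts), and the first (chr15:48330845-48331094) and last (chr15:48331947-48332196) of the 4 starts of DUT, both on the plus strand.
PCNA: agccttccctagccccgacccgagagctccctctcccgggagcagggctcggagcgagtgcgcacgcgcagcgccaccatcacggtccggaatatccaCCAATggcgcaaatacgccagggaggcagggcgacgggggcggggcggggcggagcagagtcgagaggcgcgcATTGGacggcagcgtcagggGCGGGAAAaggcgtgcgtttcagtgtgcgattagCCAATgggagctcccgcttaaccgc
FEN1: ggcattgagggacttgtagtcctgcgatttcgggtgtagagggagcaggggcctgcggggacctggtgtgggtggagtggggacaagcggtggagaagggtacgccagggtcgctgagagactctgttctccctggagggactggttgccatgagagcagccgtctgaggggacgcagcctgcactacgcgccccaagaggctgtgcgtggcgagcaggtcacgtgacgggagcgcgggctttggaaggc
POLD4: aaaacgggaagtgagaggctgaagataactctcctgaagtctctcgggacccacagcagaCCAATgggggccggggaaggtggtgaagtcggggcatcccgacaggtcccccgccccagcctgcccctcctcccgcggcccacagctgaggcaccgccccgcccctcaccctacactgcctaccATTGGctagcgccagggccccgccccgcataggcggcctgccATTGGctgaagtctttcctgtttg
DUT, first start: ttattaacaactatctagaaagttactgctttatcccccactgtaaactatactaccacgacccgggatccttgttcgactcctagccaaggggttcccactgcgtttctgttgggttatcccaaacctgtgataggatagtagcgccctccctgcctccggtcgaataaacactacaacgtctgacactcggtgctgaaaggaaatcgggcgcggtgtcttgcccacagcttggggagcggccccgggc
DUT, last start: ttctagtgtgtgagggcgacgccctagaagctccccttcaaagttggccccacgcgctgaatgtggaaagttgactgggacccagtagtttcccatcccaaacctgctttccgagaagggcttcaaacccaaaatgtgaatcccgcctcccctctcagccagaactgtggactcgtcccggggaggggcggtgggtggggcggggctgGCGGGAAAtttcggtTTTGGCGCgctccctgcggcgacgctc
In DUT the 2 E2F matches stand before the last start, and the 3 windows upstream of it held none. A match of letters is a description of the sequence and does not show that a factor bound there.

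Of the 10 tested genes for DNA polymerases and primase, 9 fell and 1 rose, with a median change of -1.38. Beside this and each role count below, 27.5% of all genes tested fell and 27.4% rose. PRIM1, the catalytic subunit of primase, fell the most of them. It stood at 9.20, 9.42 and 9.33 in the controls and at 7.22, 7.0 and 7.16 after knockdown, a change of -2.19 ± 0.106 (SE) or 4.57-fold (adjusted p = 6.95e-08), and its other probe gave -2.18. Of the polymerase alpha subunits, POLA2 fell 3.94-fold (adjusted p = 1.16e-07). The catalytic POLA1 fell at least 2.80-fold, to below background on all knockdown arrays (adjusted p = 1.64e-07). PRIM2, the large primase subunit, was detected on no array and stood at 5.52, 5.82 and 5.45 in the controls against 5.77, 5.87 and 5.68 after knockdown. Without the detection filter its change was 0.18 (adjusted p = 0.518).

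The genes of all 3 listed subunits of polymerase epsilon, which copies the leading strand, fell. The catalytic POLE fell from 8.19 ± 0.264 to 6.90 ± 0.127 (SD, n = 3 each), or 2.45-fold, the accessory POLE2 fell 4.04-fold, and POLE3, a histone-fold subunit, fell 2.77-fold. Polymerase delta, which copies the lagging strand, showed the widest range. Its catalytic POLD1 fell 2.32-fold (adjusted p = 2.31e-06) and POLD2 fell 1.71-fold. The brighter POLD2 probe changed by -0.77 and the dimmer one by -0.41. POLD3 stood at 7.02, 6.84 and 6.80 in the controls and at 6.25, 6.25 and 6.53 after knockdown, with 2 of 3 knockdown arrays above background, a change of -0.54 ± 0.114 SE (adjusted p = 0.00202), the smallest of this group.

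POLD4 alone of the tested members rose. It stood at 6.96, 6.98 and 6.90 in the controls and at 8.16, 8.39 and 8.24 after knockdown. The 3 knockdown values lay more than 1 log2 unit above every control value. The change was 1.32 ± 0.10 (SE, 95% interval 1.10 to 1.54), or 2.49-fold (adjusted p = 1.33e-06). Intensities before processing were 170.8, 140.7 and 157.9 in the controls and 262.2, 295.7 and 289.2 after knockdown. POLD4 has 1 probe on the array, so no other probe checks it.

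Every tested gene of the sliding clamp and its loader fell, 6 of 6, with a median change of -1.47. PCNA, the clamp itself, stood at 11.91, 11.77 and 11.91 in the controls and at 10.61, 10.57 and 10.82 after knockdown, or 2.30-fold lower (adjusted p = 4.10e-06). A second, dimmer PCNA probe changed by -0.30 (adjusted p = 0.0336). Within the loader the large subunit moved least. RFC1 stood at 8.19, 8.08 and 8.13 against 7.55, 7.63 and 7.78, a change of -0.48 ± 0.101 SE (adjusted p = 0.00198), and its dimmer probe changed by -0.84. Of the small subunits, RFC5 stood at 9.97, 10.09 and 10.07 against 7.94, 7.88 and 8.15, a change of -2.05 ± 0.105 SE or 4.15-fold (adjusted p = 9.38e-08). RFC3 fell 3.43-fold, RFC4 3.31-fold and RFC2 2.33-fold, and the tested probes of RFC4 gave -1.72 and -1.73. RFC3 was above background on 2 of 3 knockdown arrays. Its dimmer tested probe was below background on all of them, a fall of at least 2.32-fold.

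Okazaki fragments are trimmed, freed of RNA and joined by FEN1, RNASEH2A and LIG1, and all 3 fell. FEN1, the flap endonuclease, had the largest fall of any member. It stood at 11.08, 11.14 and 11.06 in the controls and at 8.67, 8.36 and 8.67 after knockdown, a change of -2.52 ± 0.112 SE or 5.75-fold (adjusted p = 4.05e-08). The dimmer FEN1 probe changed by -2.12. RNASEH2A, the catalytic subunit of ribonuclease H2, fell 3.40-fold (adjusted p = 1.64e-07). LIG1, the ligase that seals the fragments, was the least even. Its levels were 8.19, 8.30 and 8.07 in the controls and 7.27, 8.03 and 7.37 after knockdown, so knockdown array 2 stood close to the lowest control. The change was -0.63 ± 0.174 SE (adjusted p = 0.0104), and it was -0.54 once the background level of each array entered the fit (adjusted p = 0.0888).

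Replication protein A is a trimer, and the genes of its 3 subunits fell, with a median change of -0.68 beside -1.35 over all members. RPA2, the subunit phosphorylated in the cell cycle and after damage, stood at 10.53, 10.44 and 10.30 against 9.23, 9.21 and 9.26, or 2.28-fold lower (adjusted p = 2.70e-06). RPA3, the smallest, fell 1.6-fold. RPA1, the main DNA-binding subunit, stood at 10.08, 10.12 and 10.03 against 9.63, 9.67 and 9.65, a change of -0.43 ± 0.0924 SE (adjusted p = 0.00249). Its other probes gave -0.38 (adjusted p = 0.0432) and -0.22 (adjusted p = 0.109), and their groups overlapped.

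The origin recognition complex was measured by 6 genes, of which 4 fell, none rose and 2 did not pass, with a median change of -0.56. No fall was estimated at 2-fold or more, but that of ORC1 is only a lower bound and may be larger. With ORC6 read by its dimmer probe, a choice made after the data were seen, 5 fell, 1 of them by 2-fold or more, and the median was -0.74. ORC1, the subunit whose level is known to vary through the cell cycle, stood at 6.95, 6.74 and 6.81 in the controls and was below background on all knockdown arrays, a fall of at least 1.58-fold (adjusted p = 3.96e-05). ORC2 fell 1.72-fold, ORC5 1.61-fold and ORC3 1.35-fold. ORC3 was at -0.36 (adjusted p = 0.0525) with array background in the fit. ORC5 stood at 9.46, 9.54 and 9.46 against 8.71, 8.97 and 8.70 by its brightest probe. Its dimmer probe stood at 8.28, 8.17 and 8.22 against 7.94, 8.08 and 8.02, without overlap, and its change of -0.21 did not pass (adjusted p = 0.0900). ORC4 stood at 6.43, 6.29 and 6.58 against 6.40, 6.06 and 6.44, so the groups overlapped, and its change was -0.13 (95% interval -0.41 to 0.15, adjusted p = 0.412).

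ORC6 was measured by 2 probes that disagreed. The brighter one stood at 14.21, 14.23 and 14.18 in the controls and at 14.32, 14.24 and 14.23 after knockdown, a change of 0.05 (95% interval -0.15 to 0.26, adjusted p = 0.661). Its intensities before processing, from 18055 to 20970, put it near the 99.9th percentile of all probes. The dimmer probe stood at 8.25, 8.26 and 8.49 against 6.40, 6.53 and 6.40, a change of -1.89 ± 0.106 SE or 3.71-fold (adjusted p = 1.54e-07). The sequences of the probes were not used here, so which transcripts each one reads is unknown. PCLAF, a PCNA-binding protein outside the list, had the same kind of split, with a probe at 13.96 ± 0.145 in the controls that changed by 0.04 (adjusted p = 0.769) and dimmer probes that changed by -1.50 and -1.58.

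**Figure D3:**
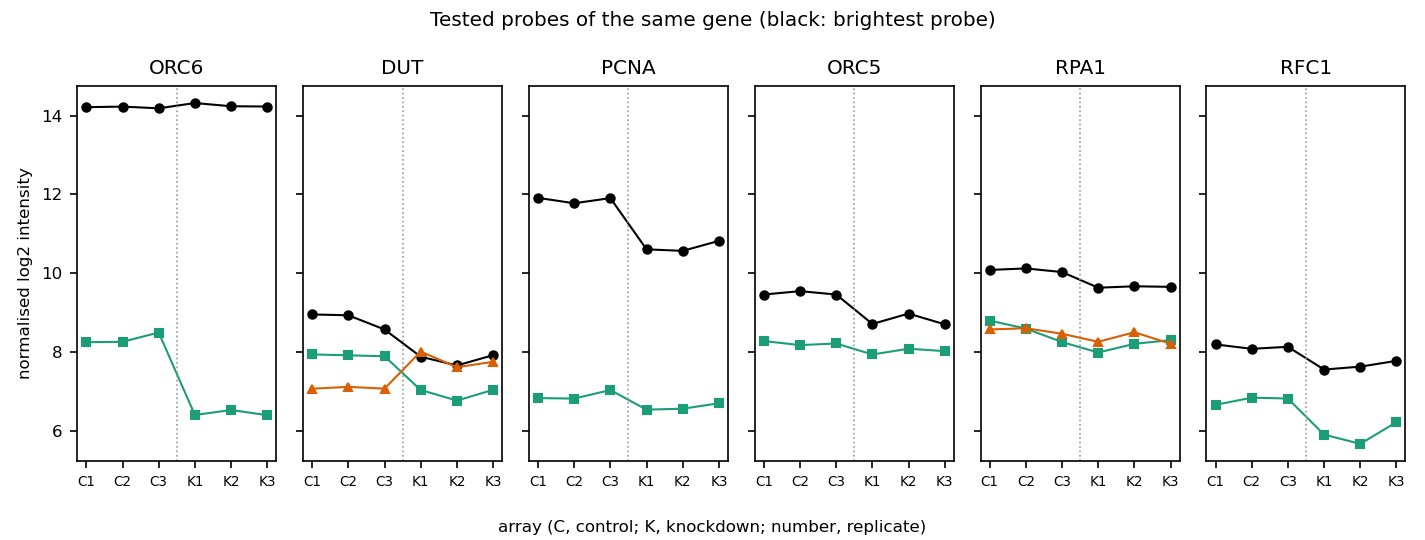
Normalised log2 intensity (y axis) of every tested probe of ORC6, DUT, PCNA, ORC5, RPA1 and RFC1 on the 3 control arrays (C) and the 3 knockdown arrays (K), with the brightest probe of a gene in black and 1 line per probe. The bright ORC6 probe is flat near 14.2 while the dimmer one falls, and 1 of the 3 DUT probes rises where the others fall.

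Both tested genes of the fork protection complex, which steadies stalled forks and carries the checkpoint signal, fell. TIPIN stood at 8.17, 7.93 and 8.10 in the controls and at 5.95, 5.82 and 6.30 after knockdown, where 1 of 3 arrays was above background, a change of -2.05 ± 0.133 SE (adjusted p = 4.24e-07). Its partner TIMELESS stood at 9.23, 9.36 and 9.19 against 7.73, 7.73 and 7.81, or 2.83-fold lower (adjusted p = 4.08e-07). CLSPN, the checkpoint mediator claspin, was detected on no array. It stood at 5.91, 5.84 and 5.42 against 4.93, 4.61 and 5.0, and without the detection filter its change was -0.88 (adjusted p = 0.00282).

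Genes that restore chromatin behind the fork fell in 3 of 3 tested cases, with a median change of -2.19. CHAF1B, a subunit of the histone chaperone CAF-1, stood at 8.12, 8.27 and 8.20 in the controls and at 6.08, 5.56 and 5.99 after knockdown, with 1 of 3 arrays above background, a change of -2.32 ± 0.135 SE (adjusted p = 1.88e-07). UHRF1, which recognises half-methylated DNA, fell 4.56-fold, and DNMT1, the methyltransferase it recruits, stood at 11.66, 11.83 and 11.48 against 10.18, 10.19 and 10.36, or 2.67-fold lower (adjusted p = 2.13e-06). CHAF1A, the large CAF-1 subunit, was detected on 1 control array and not tested. Its levels were 6.01, 6.39 and 6.30 against 4.75, 4.68 and 4.77, and its change without the detection filter was -1.50 (adjusted p = 1.30e-05).

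**Figure D4:**
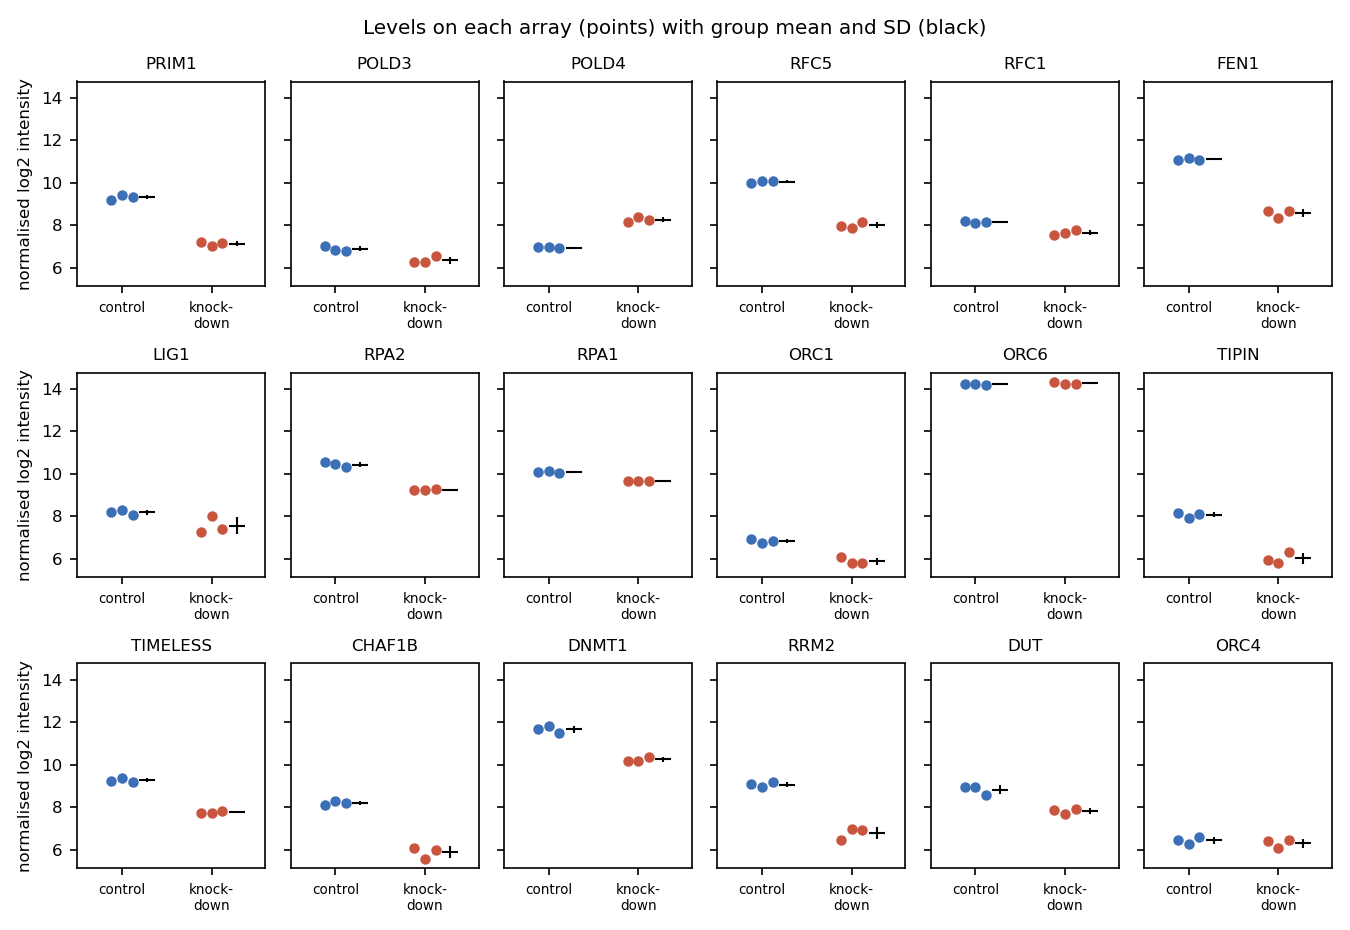
Normalised log2 intensity (y axis) on each array (points, 3 control in blue and 3 knockdown in red) with the group mean and SD (black, n = 3), for the members with the largest fall and the smallest change of each role, POLD4 and ORC4. The groups overlap in ORC4 and nearly touch in ORC6, which is shown by its brightest probe, and LIG1 on knockdown array 2 (8.03) lies just under the lowest control (8.07).

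All 5 tested genes of deoxynucleotide synthesis fell, with a median change of -1.98. RRM2, the subunit of ribonucleotide reductase made in S phase, stood at 9.08, 8.93 and 9.17 in the controls and at 6.45, 6.98 and 6.92 after knockdown, a change of -2.28 ± 0.142 SE or 4.84-fold (adjusted p = 3.13e-07). RRM1, the large subunit, fell 3.94-fold, from 11.84 ± 0.0802 to 9.86 ± 0.103 (SD, n = 3 each). TK1, the cytosolic thymidine salvage kinase, fell 4.19-fold, and TYMS, which makes thymidylate and is the target of fluoropyrimidines, fell 3.65-fold. DTYMK, the kinase that acts after both, was detected on no array, had levels of 5.76 to 6.06 in the controls against 5.31 to 5.98 after knockdown over its 2 probes, and had a change of -0.32 without the filter (adjusted p = 0.204).

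DUT, which removes dUTP and has nuclear and mitochondrial forms with different first exons, was the 1 member whose probes passed in opposite directions. The brightest probe stood at 8.95, 8.93 and 8.57 in the controls and at 7.88, 7.66 and 7.92 after knockdown, a change of -1.0 ± 0.127 SE (adjusted p = 6.29e-05). A second probe stood at 7.94, 7.92 and 7.89 against 7.04, 6.77 and 7.04, a change of -0.97 (adjusted p = 2.08e-05). The third stood at 7.07, 7.11 and 7.07 against 8.01, 7.61 and 7.75, a change of 0.71 ± 0.115 SE (adjusted p = 0.000368). None of the 3 probes had overlapping groups. Which form each probe reads was not tested, and the starts printed above cannot be assigned to probes from these files. Over all members, 51 probes were tested, of which 45 fell, 2 rose and 4 did not pass. Several of these probes belong to the same gene, and the share over all probes was not computed. Counted by gene, 27.5% of all genes tested fell and 27.4% rose.

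Other genes of DNA synthesis were set beside the members by gene lists, themselves chosen with earlier results of these data known. Of all genes tested, 27.5% fell and 27.4% rose. All 6 MCM helicase genes fell, with a median of -2.16, led by MCM2 at -2.51 (at least 4.33-fold, adjusted p = 1.26e-07). Among other replisome and fork genes 11 of 15 tested fell and none rose (median -0.66), and TOP2A, the topoisomerase that untangles chromosomes, fell most, 5.41-fold (adjusted p = 4.23e-08). Among other histone deposition genes 8 of 11 fell and none rose (median -0.60), led by ASF1B, a histone H3-H4 chaperone, at least 3.29-fold (adjusted p = 1.30e-07). Among purine and pyrimidine ring synthesis genes 14 of 17 fell and none rose (median -0.54), and CTPS1, a CTP synthase, fell most, 4.63-fold (adjusted p = 4.04e-08). Whether these lists differ from the members was not tested.

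Of 9 tested deoxynucleotide genes outside the list, 4 were lower and 2 higher (27.5% and 27.4% of all genes were), with a median change of 0.07. DCK, the deoxycytidine salvage kinase, fell 2.06-fold (adjusted p = 2.88e-05). RRM2B, the p53-inducible counterpart of RRM2, stood at 8.34, 8.30 and 8.12 against 8.75, 8.63 and 8.74, a change of 0.45 ± 0.102 SE (adjusted p = 0.00311), but 0.30 (adjusted p = 0.225) with arrays scaled to a common median. TK2, the mitochondrial counterpart of TK1, was at 0.35 (adjusted p = 0.0411), and that call was lost in 10 of 15 alternative settings, with adjusted p up to 0.172, among them without control replicate 1 (0.22) or 2 (0.35) and without knockdown replicate 1 (0.35), 2 (0.31) or 3 (0.40).

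Polymerases of translesion synthesis and repair fell in 7 of 11 tested genes and rose in 1 (27.5% and 27.4% of all genes did), with a median of -0.38. POLQ, the polymerase of theta-mediated end joining, fell 4.09-fold (adjusted p = 6.90e-08). POLL was at 0.53 with overlapping groups (adjusted p = 0.0446), a call lost in 7 of 15 settings, with a change of 0.08 (adjusted p = 0.658) with array background in the fit, and lost without control replicate 1 (0.50) or 3 (0.35) and knockdown replicate 1 (0.40) or 3 (0.49). Genes of mitochondrial DNA replication fell in 4 of 8 cases and rose in 1 (median -0.26), beside the same shares of all genes. TWNK, the mitochondrial helicase, fell 2.40-fold (adjusted p = 7.83e-06), while TOP1MT, the mitochondrial topoisomerase, rose 1.68-fold (adjusted p = 0.000605), with 0.23 (adjusted p = 0.156) for its other probe, and POLG, the mitochondrial polymerase, was at -0.14 (adjusted p = 0.340).

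**Figure D5:**
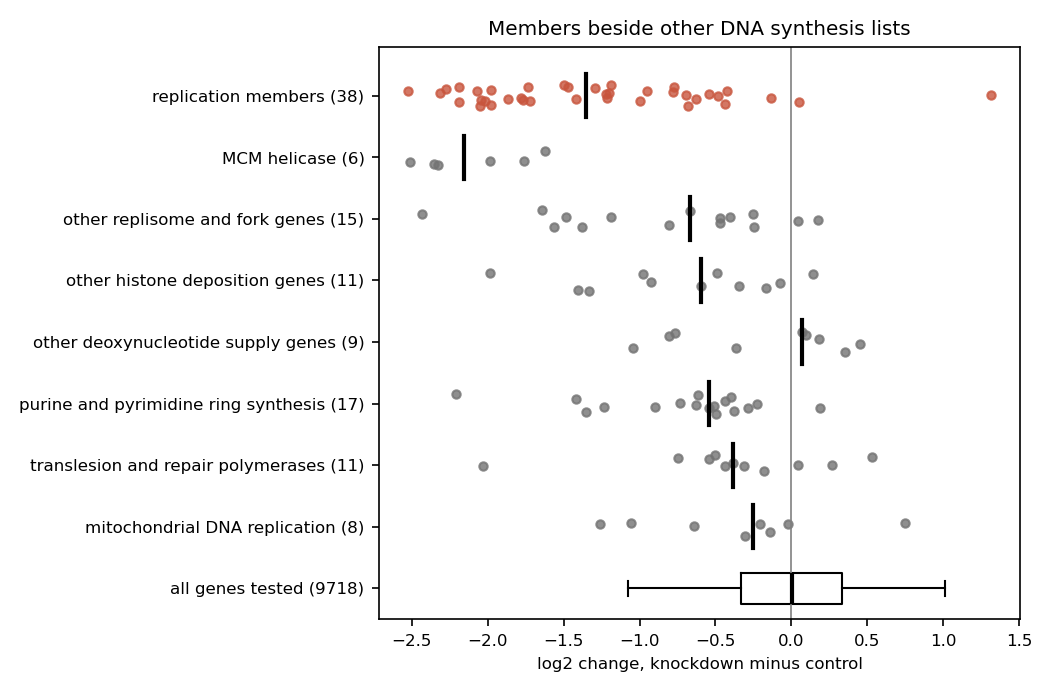
Log2 change (x axis, knockdown minus control) of each tested gene (points) in the replication list (red) and in the other DNA synthesis lists (grey), with the number tested in brackets and a black bar at each median; the box for all genes tested spans the quartiles, with whiskers at the 5th and 95th percentiles. The medians are -1.35 for the replication list, -2.16 for the MCM helicase and 0.07 for other deoxynucleotide supply genes; vertical scatter within a row has no meaning.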

How the data were processed

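Total RNA of 6 samples was hybridised to 1-colour bead arrays, per the labels' protocols. The submitters' processing notes list BeadStudio, with a version not given in the sources used here. Analysis started from the deposited table, which holds 1 non-normalised intensity per probe and array, without control probes or detection p-values. The authors' processed values, deposited on a log2 scale, look quantile-normalised (91.0% lay within 0.1 of quantile-normalised log2 intensities) and served as an alternative. In R 4.3.3 with limma 3.58.1, intensities were background-corrected by normexp fitted on each array's own probes (offset 16), quantile-normalised and log2-transformed; the offset shrinks changes of dim probes. A detection threshold per array, 76.5 to 128.3, came from the mode of the log2 density (bandwidth 0.05) and the mirrored values below it, at a p of 0.05. Probes detected on at least 3 arrays were tested, two-sided, with lmFit and eBayes over all 6 arrays without covariates, and a gene stood for its brightest detected probe. Where no array of a group detected a probe, its fold is a lower bound, taken against the higher of its own value and the lowest detected value there. The number of arrays limits the precision. The fit was run on simulated data with independent noise and few changed probes, all among the brighter ones. Far more genes were called here, so that run does not check the normalisation of these data.

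Symbols came from the platform annotation, updated through Entrez identifiers (30113 probes had 1 symbol, 8 several and 17110 none here). Members, lists and the naming rule were chosen with earlier results of these data known. The rule gave array values for the largest fall and smallest change of each role, for members that rose or did not pass, and for those whose probes disagreed, and, per list, the largest rise and fall; PCLAF, TK2 and POLG were added after their values were seen. Alternatives were median scaling, no background correction, offset 50, the authors' values, detection on all 6 arrays or no filter, the mean of a gene's probes, array background as a covariate, the replicate number as a block, leaving out each array and, added after seeing the data, the dimmest detected probe, for all genes or for ORC6 alone.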

Additional observations from a re-analysis of the deposited data

How the results depend on the processing

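The count of members that fell was 33 to 36 of 38 under all alternatives that kept 38 genes, 29 of 31 with detection on all 6 arrays and 37 of 42 without the detection filter, and 1 member rose under each. Where 38 members were kept, 2225 to 2782 of all 9718 genes fell and 1438 to 2818 rose. With detection on all 6 arrays 2353 of 8156 genes fell and 2246 rose, and without the filter 2051 of 20046 fell and 2141 rose. The members' median change of -1.35 became -1.50 with arrays scaled to a common median, -1.25 with offset 50, -1.26 without the detection filter and -1.44 with the dimmest detected probe of each gene or with ORC6 alone read by its dimmer probe, alternatives chosen after seeing the data, and it ran from -1.45 to -1.31 when single arrays were left out. Over all genes, 1438 rose under median scaling in place of 2658, so that rises made up 36.7% of calls and not 49.9%. Replicate numbers are shared between the groups, but same-numbered arrays did not deviate together (correlations -0.18, -0.13 and -0.015). With the replicate number as a block, 35 members fell, 1 rose and the median was -1.35, with 2520 of all genes lower and 2523 higher, and no member's call changed. Calls of single members changed as follows: LIG1 (-0.54) and ORC3 (-0.36) no longer passed with array background as a covariate, ORC5 (-0.21) no longer passed with its dimmest probe, and ORC6 was at -0.92 with the mean of its probes and at -1.89 with the dimmer one, where PCLAF was at -1.01 and -1.58. The cause of the probe differences was not tested. PRIM2, CLSPN, CHAF1A and DTYMK lay at or near background, which limits what these arrays show of them.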
